A study of Mus musculus with 21 samples.

Results

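The Platr genes (pluripotency-associated transcripts) were examined across mouse stem cell lines and early epiblasts. Members were taken by symbol, as every row of the count table whose gene symbol is Platr followed by a number. The rule found 30 of 33861 genes, and all 30 had at least 1 count in some sample. The numbers run to 32, and Platr18 and Platr24 do not occur as symbols: RefSeq lists Platr18 as a synonym of Lncenc1 and Platr24 as a synonym of Kis2, which the rule therefore did not take.

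The name goes back to long noncoding RNAs whose expression in mouse embryonic stem cells follows that of the pluripotency network and declines when the cells differentiate. Long noncoding RNAs are transcripts without a recognised protein product, often spliced and polyadenylated, and usually present at lower levels than messenger RNAs. Few Platr transcripts have an assigned function, and best known among them is Platr4, studied in embryonic stem cell differentiation towards mesoderm and endoderm. Pluripotent cells of the embryo pass from a naive state before implantation through a formative state to a primed state, in which epiblast stem cells (EpiSCs) are held in culture.

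The series holds 21 samples in 7 groups of 3. Formative stem (FS) cells, a culture form of the formative state, came from line 5cdr1 (FS1, passages 10, 11 and 18) and line 5cdr2 (FS2, passages 12, 13 and 16), both kept in A3XR, a medium with activin A, the tankyrase inhibitor XAV939 and a retinoic acid receptor inverse agonist. EpiSCs named E14 were kept in AF, with activin A and FGF2, or in AFX, which adds XAV939, and were sampled at passages 14, 15 and 16 in each medium. Epiblasts were taken one by one from embryos at E5.0 (embryos 1, 2 and 4), E5.5 (embryos 1, 2 and 3) and E6.0 (embryos 1, 2 and 3), and for this last group another label field gives a later day. Each cultured sample was 1000 cells. No strain, genotype, sex or added treatment is given for any group. FS cells and EpiSCs differ in line and in medium together, and passages of a line are not separate derivations, so p-values among cultured groups measure the spread between these samples. Total counts ran from 5827093 to 15916800 per sample.

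In the GENCODE M21 annotation of GRCm38, the 30 members lie on 13 chromosomes, 7 of them on chromosome 2 and 5 on chromosome 1. Most, 20 of 30, are annotated as lincRNA and 6 as processed transcript, with 1 antisense and 1 sense intronic gene. The noncoding label goes against GENCODE for 2 members, Platr17 and Platr25, which are annotated there as protein coding. RefSeq also carries Platr17 as a protein-coding gene, Smim40, but lists Platr25 as a miscellaneous RNA. Exon lengths ran from 375 to 6180 bases.

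Promoter windows of RefSeq (GRCm38.p6), 250 bases before to 50 after a start, were found by symbol for 13 of the 30 members, in 15 windows. Those shown here belong to the member that differed between FS cells and EpiSCs in both media (Platr10), to the member that differed both between FS lines and between stages (Platr14), and to members that fell between E5.0 and E6.0 (Platr21, Platr7 and Platr20). Capitals mark matches on either strand to 1 of 6 motifs searched: the octamer ATGCAAAT, the SOX core ACAATG, the ESRRB core AAGGTCA, the KLF core GGGTGTG, the TATA box TATAAA and the E-box CACGTG. Each is written 5′ to 3′ on the strand of the gene.
Platr10, chr3:75655682-75655981, minus strand: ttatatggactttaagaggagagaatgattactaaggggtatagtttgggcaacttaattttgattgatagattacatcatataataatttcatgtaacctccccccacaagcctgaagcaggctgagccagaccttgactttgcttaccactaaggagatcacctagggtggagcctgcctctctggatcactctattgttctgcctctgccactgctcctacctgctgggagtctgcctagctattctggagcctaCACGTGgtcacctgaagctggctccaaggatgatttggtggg
Platr14, chr2:104559209-104559508, plus strand: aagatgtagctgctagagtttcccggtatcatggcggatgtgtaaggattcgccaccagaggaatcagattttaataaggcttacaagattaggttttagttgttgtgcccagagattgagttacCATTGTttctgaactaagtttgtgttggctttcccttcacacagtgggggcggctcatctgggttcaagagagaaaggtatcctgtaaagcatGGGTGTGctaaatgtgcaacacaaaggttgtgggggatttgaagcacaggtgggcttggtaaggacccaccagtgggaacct
Platr21, chrX:139357689-139357988, minus strand: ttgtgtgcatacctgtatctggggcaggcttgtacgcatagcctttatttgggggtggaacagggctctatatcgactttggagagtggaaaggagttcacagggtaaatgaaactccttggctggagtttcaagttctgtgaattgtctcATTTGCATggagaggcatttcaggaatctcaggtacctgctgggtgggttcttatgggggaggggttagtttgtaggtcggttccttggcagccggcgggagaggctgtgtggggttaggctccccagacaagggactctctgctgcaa
Platr7, chr10:84553289-84553588, minus strand: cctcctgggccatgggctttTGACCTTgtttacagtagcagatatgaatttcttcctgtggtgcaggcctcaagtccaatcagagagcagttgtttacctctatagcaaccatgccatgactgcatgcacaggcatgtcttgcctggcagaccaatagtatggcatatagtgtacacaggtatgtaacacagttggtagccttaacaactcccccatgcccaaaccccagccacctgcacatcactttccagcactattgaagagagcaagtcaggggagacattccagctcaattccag
Platr20, chr11:51220369-51220668, minus strand: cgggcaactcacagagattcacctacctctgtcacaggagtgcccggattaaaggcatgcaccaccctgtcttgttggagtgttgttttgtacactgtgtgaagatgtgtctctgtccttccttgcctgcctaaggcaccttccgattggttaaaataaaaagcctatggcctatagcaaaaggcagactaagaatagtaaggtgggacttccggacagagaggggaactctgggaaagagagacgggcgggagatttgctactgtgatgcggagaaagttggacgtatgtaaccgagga

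The octamer, the site class bound by POU factors such as OCT4, stood in the Platr21 window shown and in 1.74% of all 32851 promoters. Another Platr21 window, from position 139356721, held no match to the 6 motifs. Platr14 held a SOX core match, as did 12.6% of promoters, and a KLF core match, as did 7.95%. The Platr7 window held an ESRRB core match (4.72% of promoters) and the Platr10 window an E-box (7.15%). The SOX core was also found at Platr8, the KLF core at Platr26 and the TATA box (13.6% of promoters) at Platr5, at overlapping positions. All 15 windows had a GC content below the median of all promoters, 52.7%, with a range of 39.0% to 52.0%. The Platr10 promoter resembled 18 other promoters over at least 100 aligned bases and that of Platr5 resembled 45, whereas 6.62% of all promoters resembled 10 or more. No member's promoter resembled that of another member. These matches describe the sequence and are not measured binding sites.

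Reads of several members could not be assigned with certainty. Over stretches of at least 50 bases and 95% identity, other genes covered 53.8% of a Platr15 transcript, 53.2% of Platr16, 50.9% of Platr13, 48.6% of Platr17, 41.6% of Platr25, 32.6% of Platr14 and 27.0% of Platr4. Platr16 shares 290 exon bases with Gm13230 on the same strand. The values of these members are uncertain to that extent. Of the 17 members described singly, 9 had no such match: Platr3, Platr5, Platr7, Platr11, Platr12, Platr20, Platr21, Platr22 and Platr27. The strand setting of the counting is not given in the sources used here, so sense and antisense reads cannot be told apart where exons of opposite strands overlap: Platr9 with Cga (305 bases), Platr30 with Gm26553 (162 bases) and Platr31 with Tigar (122 bases).

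Levels are given as CPM, counts scaled to the library total (CPM with TMM factors). A mean of at least 1 CPM in some group was reached by 17 members. Another 6 (Platr2, Platr6, Platr9, Platr26, Platr29 and Platr30) never exceeded 2 counts in a sample, and the 7 between (Platr1, Platr8, Platr19, Platr23, Platr28, Platr31 and Platr32) had group means of at most 0.746 CPM. Expression of these 13 was not resolved at this depth, at which 3 counts equal 0.171 to 0.589 CPM.

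The E5.0 epiblast held the most Platr RNA of the groups sampled. Between 17 and 19 members had at least 5 counts in each E5.0 epiblast, 12 to 15 at E5.5 and 9 to 11 at E6.0. Cultured samples had 7 to 12. Summed over all 30 members, the level was 223 ± 22.2 CPM (SD, n = 3) at E5.0, 101 ± 30.3 CPM at E5.5 and 59.3 ± 25.2 CPM at E6.0 (both SD, n = 3). In culture the sum was 35.0 ± 1.92 CPM in FS1, 48.7 ± 6.27 CPM in FS2, 55.5 ± 10.1 CPM in AF and 59.9 ± 12.2 CPM in AFX (each SD, n = 3). Every E5.0 epiblast, at 199 CPM or more, lay above every other sample, while E6.0 (32.0 to 81.7 CPM) overlapped all cultured groups. In bulk samples such as these, fewer expressing cells and less RNA per cell cannot be told apart.

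**Figure D1:**
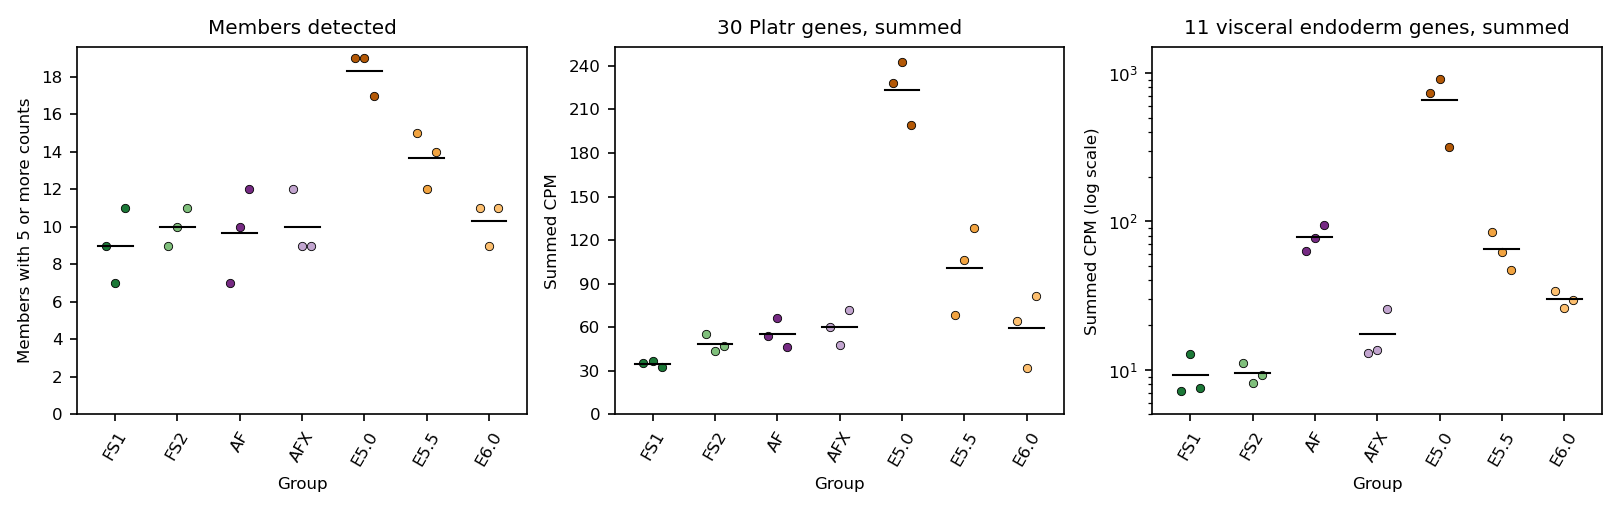
Number of Platr members with at least 5 counts, summed Platr level in CPM and summed level of 11 visceral endoderm genes in CPM on a log axis, by group on the horizontal axis, with 1 point per sample and a bar at the mean. The E5.0 epiblasts are highest in all panels, at 17 to 19 members and 199 to 242 CPM of Platr RNA.

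Of the 17 members, 15 had their highest group mean at E5.0. The exceptions were Platr22, highest at E5.5 (8.86 ± 0.455 CPM, SD, n = 3), and Platr11, whose means in FS2 (6.65 ± 1.86 CPM) and at E5.0 (6.60 ± 5.00 CPM, both SD, n = 3) did not differ beyond their spread. Means descended from E5.0 through E5.5 to E6.0 for 16 of the 17, all but Platr22. In culture 10 of the 17 had a mean under 1 CPM in every group: Platr3, Platr4, Platr5, Platr7, Platr12, Platr13, Platr16, Platr17, Platr20 and Platr27.

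**Figure D2:**
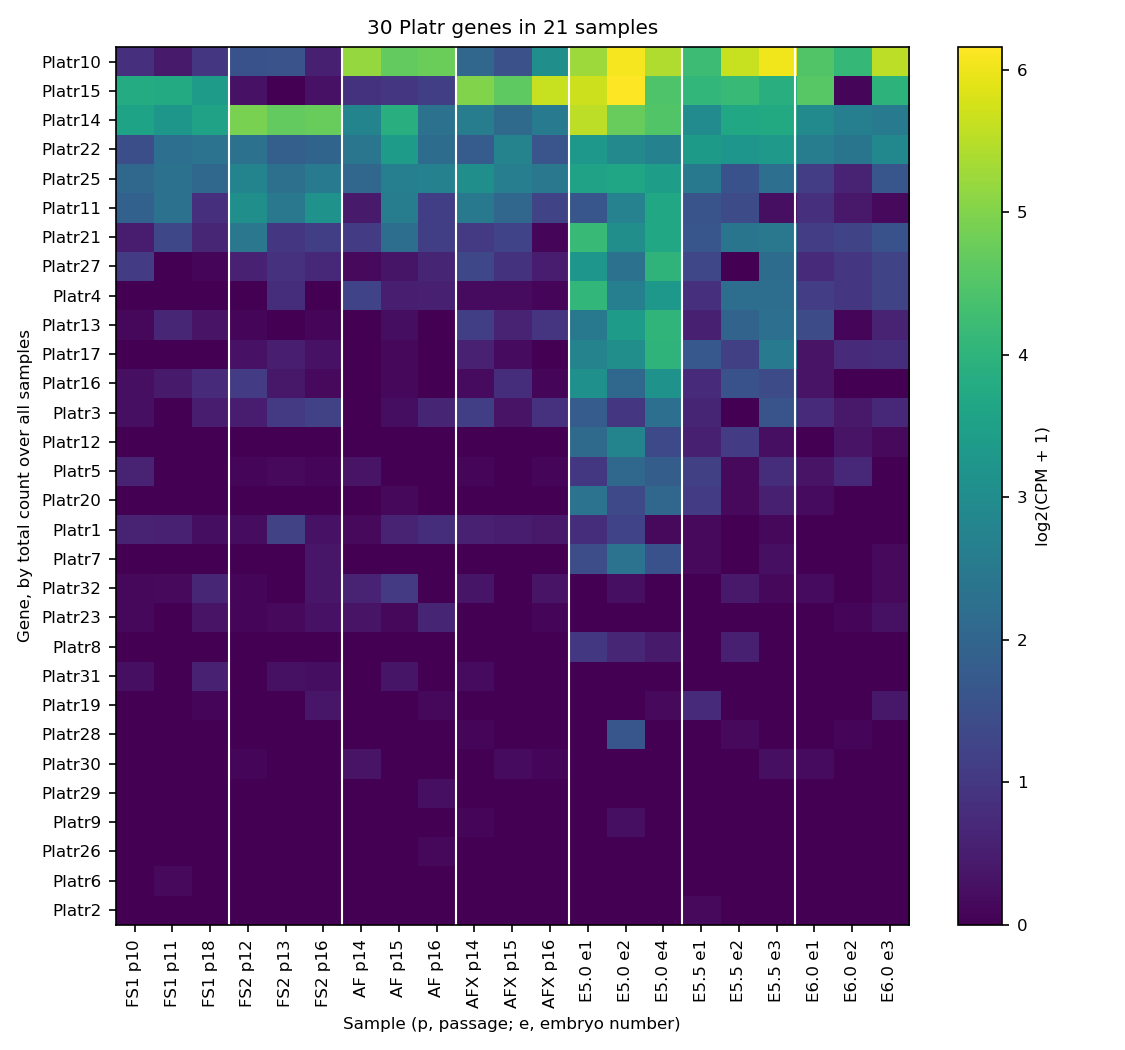
Level of each of the 30 Platr members (rows) in each of the 21 samples (columns, by group), as a colour for log2(CPM + 1). Most of the 17 members with a mean of at least 1 CPM are brightest in the E5.0 epiblasts, and 10 of them have a mean under 1 CPM in every cultured group.

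Per kilobase of exon, which allows genes to be ranked, Platr15 led at E5.0 with 61.6 CPM per kb, followed by Platr10 with 27.7 and Platr13 with 26.1 CPM per kb. Platr10 led at E5.5 with 24.9 CPM per kb. In culture the leading member differed by group. Platr15 led in FS1 (15.2 CPM per kb) and AFX (44.7 CPM per kb), Platr11 in FS2 (17.1 CPM per kb) and Platr10 in AF (16.5 CPM per kb).

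Between E5.0 and E6.0, 12 of the 30 members fell and none rose, with edgeR's quasi-likelihood test at an adjusted p under 0.05. Among all 14228 genes tested, 11.6% fell and 10.2% rose. The 13 members without a resolved level were not tested. Of the 12 that fell, 10 passed the filter on low counts through E5.0 and not through E6.0. Those that needed E5.0 to pass could hardly be tested without falling. The fit also held E5.5, where Platr17 (20, 11 and 51 counts) and Platr25 (41, 17 and 40 counts) passed without E5.0. Platr14 and Platr21 passed the filter at both E5.0 and E6.0.

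Platr14 had 45.7, 25.7 and 21.3 CPM at E5.0, 6.89, 11.9 and 12.3 CPM at E5.5, and 6.70, 5.28 and 4.79 CPM at E6.0. Its E5.0 values lay above all later ones. It fell 5.53-fold by E6.0 (log2 fold change -2.49, SE 0.34, adjusted p = 0.000163, edgeR), and the fall to E5.5 also passed the test (-1.59, SE 0.32, adjusted p = 0.0118).

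Platr21, a transcript from chromosome X whose span overlaps Trap1a on the other strand without shared exon bases, had 17.1, 7.26 and 11.8 CPM at E5.0. It had 2.15, 4.24 and 4.57 CPM at E5.5, and 1.18, 1.38 and 1.92 CPM at E6.0. The 3 stages did not overlap. It was 8.06-fold lower at E6.0 than at E5.0 (log2 fold change -3.02, SE 0.47, adjusted p = 0.000464, edgeR) and fell to E5.5 as well (-1.74, SE 0.43, adjusted p = 0.0292). Trap1a fell with it (-4.46, SE 1.02, adjusted p = 0.0238), as did Mum1l1, the nearest protein-coding gene that does not overlap it, 1891 bases away (-1.32, SE 0.28, adjusted p = 0.00466).

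A further group was close to the detection limit outside E5.0. Platr7 had 1.74, 4.12 and 1.92 CPM at E5.0 and at most 0.187 CPM in any later epiblast. It was at least 8.08-fold lower at E5.5 (adjusted p = 0.0318, edgeR) and at least 7.99-fold lower at E6.0 (adjusted p = 0.00596), both against a floor of 3 counts per sample. Without E6.0 embryo 2 the later call was lost (adjusted p = 0.0544). Platr12 had 3.35, 5.89 and 1.56 CPM at E5.0 and 0, 0.260 and 0.106 CPM at E6.0. That made it at least 11.1-fold lower (adjusted p = 0.00796). Platr20 had 4.10, 1.57 and 3.12 CPM at E5.0 and 0.131, 0 and 0 CPM at E6.0, at least 9.03-fold lower (adjusted p = 0.0047). These members had E5.0 values above all E6.0 values, but from few counts.

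Platr16, which shares exon bases with Gm13230, had 7.57, 3.14 and 7.91 CPM at E5.0, 0.678, 1.95 and 1.68 CPM at E5.5, and 0.263, 0 and 0 CPM at E6.0. It was at least 19.1-fold lower at E6.0 than at E5.0 (adjusted p = 0.000641, edgeR). It was also the only member called between E5.5 and E6.0, at least 4.42-fold lower (adjusted p = 0.0371), beside 2.54% of all genes lower and 1.89% higher. That call was lost without E5.5 embryo 2 or 3, without E6.0 embryo 2 or 3 and with the embryo number as a block. Platr17 passed as lower there with DESeq2 (adjusted p = 0.0216) and with no filter on low counts (adjusted p = 0.0134, edgeR). Gm13230 fell with it between E5.0 and E6.0 (log2 fold change -6.29, SE 0.38, adjusted p = 2.22e-07), and the 2 genes' reads cannot be separated over the shared exon. Both protein-coding neighbours of Platr16 also fell, Tnfrsf8 (-5.25, SE 0.74, adjusted p = 0.000212) and the zinc finger gene Zfp990 (-1.93, SE 0.35, adjusted p = 0.00555).

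Platr17 had 5.71, 7.26 and 15.1 CPM at E5.0 and 0.263, 0.692 and 0.745 CPM at E6.0, a 16.5-fold fall (adjusted p = 0.000711, edgeR). Platr25 had 10.7, 11.6 and 9.83 CPM at E5.0 and 1.18, 0.519 and 2.13 CPM at E6.0, an 8.38-fold fall (adjusted p = 0.000988). These are the members that GENCODE annotates as protein coding. Platr4 had 16, 5.30 and 8.75 CPM at E5.0 and 1.18, 0.952 and 1.38 CPM at E6.0, an 8.55-fold fall (adjusted p = 0.00247). In each of these 3 genes the E5.0 and E6.0 samples stood apart.

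Platr11, whose nearest protein-coding gene on one side is the T-box factor gene Eomes at 72113 bases, had 2.11, 5.69 and 12 CPM at E5.0 and 0.788, 0.346 and 0.106 CPM at E6.0. It fell 15.95-fold (adjusted p = 0.00836, edgeR), while Eomes did not pass the test (log2 fold change 0.76, adjusted p = 0.292). Platr13 had 4.59, 9.42 and 15.3 CPM at E5.0 and 1.71, 0.0866 and 0.532 CPM at E6.0, a 12.6-fold fall (adjusted p = 0.0101). Platr27 had 8.44, 3.92 and 15.1 CPM at E5.0 and 0.657, 0.952 and 1.38 CPM at E6.0, a 9.18-fold fall (adjusted p = 0.0259). E5.0 embryo 4 was highest in all 3 of these genes. The call of Platr13 was lost without E6.0 embryo 3 and with the embryo number as a block (adjusted p up to 0.0964), and that of Platr27 without E5.0 embryo 1 or 4 or any 1 E6.0 embryo (adjusted p up to 0.108).

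The 5 tested members that did not pass between E5.0 and E6.0 were Platr3, Platr5, Platr10, Platr15 and Platr22. Under other settings Platr5 passed as lower with DESeq2 (log2 fold change -2.91, adjusted p = 0.0458). Platr10 did so with the embryo number as a block (-1.34, adjusted p = 0.0442, edgeR). Platr22 had 8.81, 6.47 and 5.52 CPM at E5.0, 9.26, 8.37 and 8.95 CPM at E5.5, and 4.99, 4.24 and 6.39 CPM at E6.0. Its E5.0 and E6.0 samples overlapped. Platr3 had 2.48, 0.981 and 3.72 CPM at E5.0 and 0.657, 0.346 and 0.639 CPM at E6.0, and Platr5 had 0.993, 3.14 and 2.52 CPM and then 0.263, 0.606 and 0 CPM.

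At E5.5 against E5.0 the 3 members called (Platr7, Platr14 and Platr21) were lower, beside 3.75% of all genes lower and 3.07% higher. Platr7 passed the filter only through its E5.0 samples, so it could hardly be tested without falling. The calls of Platr7 and Platr21 were lost without any 1 of the E5.5 embryos and without E5.0 embryo 4. Both were also lost with these 2 stages fitted alone and with the embryo number as a block. That of Platr7 was lost without E5.0 embryo 2 too, and that of Platr21 without E5.0 embryo 1. The call of Platr14 was lost without E5.5 embryo 1 (adjusted p = 0.0529, edgeR), which left no member called. Without E5.0 embryo 4, 1 member was called.

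**Figure D3:**
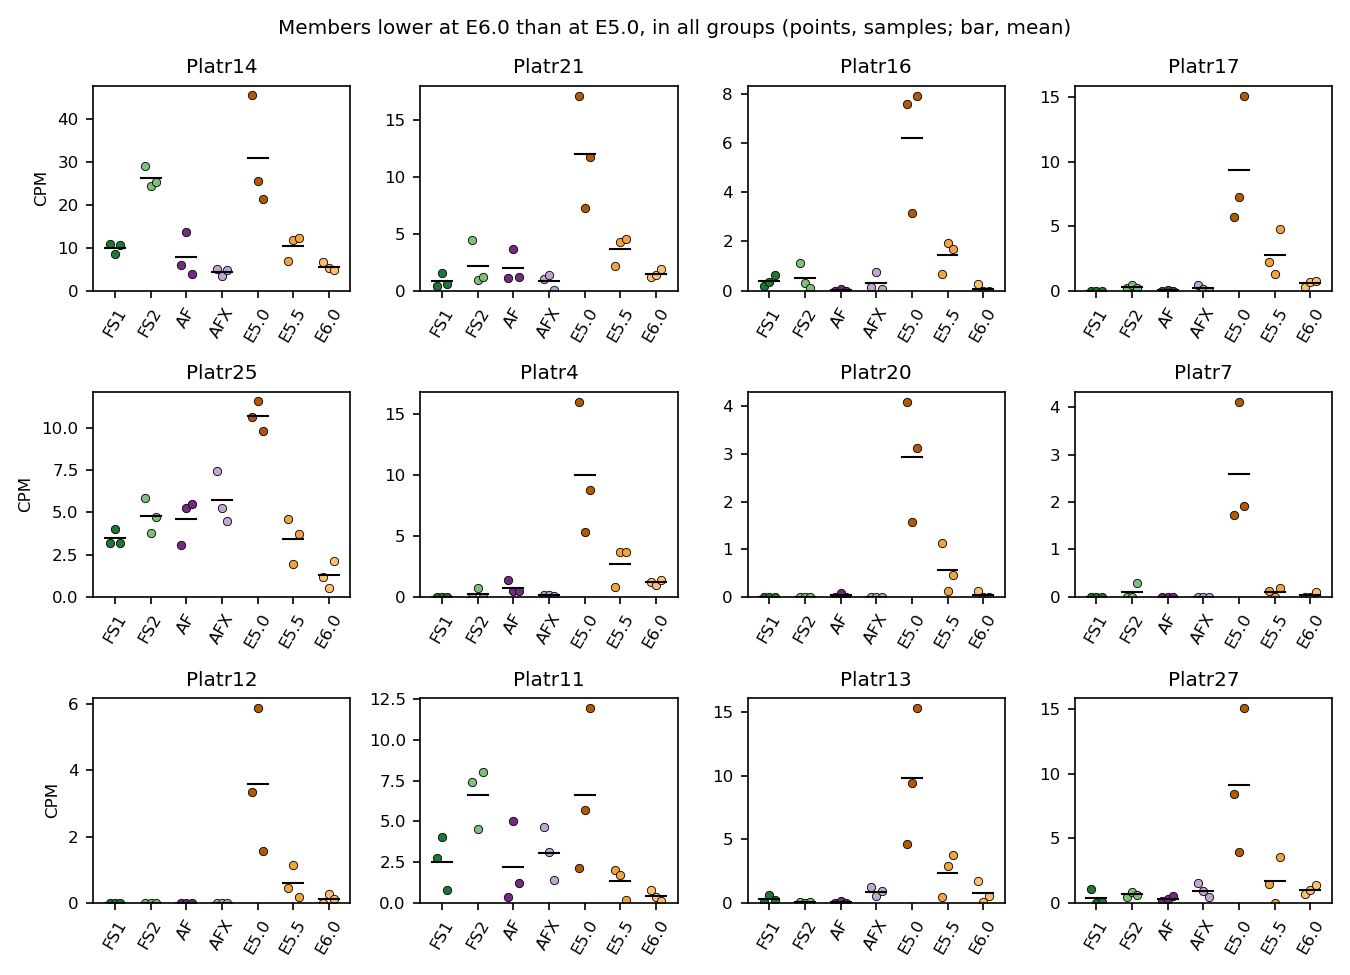
Levels in CPM (vertical axes, each with its own scale) of the 12 members lower at E6.0 than at E5.0, in all 7 groups (horizontal axes), with 1 point per sample and a bar at the mean. In each of the 12, every E5.0 embryo lies above every E6.0 embryo.

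Markers of visceral endoderm, the tissue that surrounds the epiblast, moved with stage. Summed over 11 genes they reached 318 to 918 CPM at E5.0, 46.7 to 85.4 CPM at E5.5 and 26.2 to 34.1 CPM at E6.0, and 8 of 9 tested fell between E5.0 and E6.0. Their part in the Platr results was not tested. Among E5.0 embryos, number 4 had the lowest visceral endoderm sum (318 CPM) and the highest Platr3, Platr11, Platr13, Platr16, Platr17 and Platr27. Embryo 2 had the highest sum (918 CPM) and the highest Platr5, Platr7, Platr10, Platr12, Platr15 and Platr25. Embryo 1, with 737 CPM, had the highest Platr4, Platr14, Platr20, Platr21 and Platr22. Extraembryonic ectoderm genes summed to 3.36 to 30.02 CPM at E5.0.

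Other pluripotency genes gave a mixed picture over the same interval. Of 8 naive genes tested 3 fell and none rose, namely Zfp42 (log2 fold change -2.73, adjusted p = 0.000188, edgeR), Tfcp2l1 (-2.72, adjusted p = 0.00214) and Klf5 (-1.54, adjusted p = 0.0323), all transcription factor genes of the naive network. Of 12 general pluripotency genes 5 fell, led by Dppa5a (-4.17, adjusted p = 3.76e-10), Dppa2 (-5.07, adjusted p = 1.9e-08) and Dppa4 (-2.41, adjusted p = 1.19e-06), and 3 rose. Of 11 formative epiblast genes 3 fell and 2 rose. Of 21 other noncoding RNAs tested 1 fell and 2 rose. The one that fell was Lncenc1, which RefSeq also names Platr18 (-6.19, SE 1.23, adjusted p = 0.0112).

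In culture only 8 members were expressed enough to test, and 3 of them differed between groups: Platr10, Platr14 and Platr15.

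Platr10, a lincRNA 3951 bases from the neuroserpin gene Serpini1, was high in EpiSCs in AF. FS1 had 0.794, 0.354 and 0.977 CPM and FS2 had 1.93, 2.0 and 0.455 CPM. AF had 35.4, 24.7 and 26.4 CPM, and AFX had 3.09, 1.87 and 7.31 CPM. AF thus stood above every other cultured sample, while AFX overlapped FS. Platr10 was 26.6-fold lower in FS than in AF (log2 fold change -4.74, SE 0.45, adjusted p = 1.3e-05, edgeR). No other member passed in that comparison with all samples and both FS lines in 1 group, in which 10.6% of all 16052 genes were lower in FS and 8.86% higher.

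With line name held the same, Platr10 was 7.05-fold lower in AFX than in AF (log2 fold change -2.80, SE 0.52, adjusted p = 0.00566, edgeR), the only member called, beside 4.42% of genes lower and 4.30% higher. FS was also below AFX, 3.77-fold (-1.95, SE 0.48, adjusted p = 0.0206), beside 4.92% of genes. This last call was lost without AFX passage 16, with FS2 as the only FS line and with no filter on low counts (adjusted p up to 0.188). AF samples also had more RNA of genes used as markers of other cell types. Visceral endoderm genes summed to 62.9 to 94.9 CPM in AF, 12.9 to 25.7 CPM in AFX and 7.25 to 12.9 CPM in FS, but Afp among them had no count in AF. Feeder fibroblast genes summed to 248 to 294 CPM in AF and to at most 67.8 CPM in the other cultured groups. Neither the cells that expressed these markers nor the markers' part in the Platr10 result was tested. Of 6 naive pluripotency genes tested, 6 were lower in FS than in AF.

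In the epiblasts Platr10 remained high, with 37.0, 66.1 and 41.8 CPM at E5.0, 17.7, 49.1 and 63.8 CPM at E5.5, and 21.3, 16.1 and 46.0 CPM at E6.0. The stages overlapped. Its more distant neighbour Golim4, 219353 bases away, rose between E5.0 and E6.0 (log2 fold change 1.69, SE 0.26, adjusted p = 0.000472, edgeR). In culture Golim4 was lower in AFX than in AF (-0.61, SE 0.16, adjusted p = 0.0324) and higher in FS than in AFX (0.75, SE 0.15, adjusted p = 0.00443), where Platr10 was lower. It did not pass between FS and AF (0.15, adjusted p = 0.517).

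Platr14 differed between the FS lines. FS1 had 10.9, 8.50 and 10.7 CPM, FS2 had 29.1, 24.6 and 25.4 CPM, AF had 5.92, 13.7 and 3.99 CPM, and AFX had 5.10, 3.37 and 4.90 CPM. The FS lines did not overlap each other, and neither overlapped AFX. FS2 was above FS1 (log2 fold change 1.37, SE 0.33, adjusted p = 0.0316, edgeR), beside 2.65% of genes, but the call was lost when any 1 of the 6 FS samples was left out. FS as a whole was above AFX (2.01, SE 0.49, adjusted p = 0.0226), beside 3.78% of genes, a call lost without any 1 of the AFX samples, with FS1 as the only FS line and with no filter. Against AF, Platr14 did not pass with both FS lines in 1 group (1.19, SE 0.46, adjusted p = 0.0935, edgeR), but it was higher in FS with DESeq2 (adjusted p = 0.0302), with the lines as separate groups (1.03, SE 0.30, adjusted p = 0.0222), with FS2 alone (1.71, SE 0.36, adjusted p = 0.00611) and without AF passage 15 (1.88, SE 0.52, adjusted p = 0.0279). The neighbours Cstf3 and Hipk3 passed neither between the FS lines nor between FS and AFX.

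Platr15 separated the FS lines most. FS1 had 12.8, 12.6 and 9.53 CPM, whereas FS2 had 0.241, 0 and 0.227 CPM. AF had 0.863, 0.967 and 1.21 CPM, and AFX had 30.6, 23.7 and 48.6 CPM. No 2 of these 4 groups overlapped. In the fit of these groups FS1 and AFX each passed the filter on low counts, and FS2 did not. FS2 was at least 48.02-fold below FS1, taken against 3 counts per sample (log2 fold change -5.99, SE 0.45, adjusted p = 9.83e-07, edgeR), beside 1.20% of genes. FS as 1 group, with lines that differed by this much, did not pass against AF (2.48, adjusted p = 0.29). In AFX the mean was 34.3 ± 12.8 CPM and in AF 1.01 ± 0.176 CPM (both SD, n = 3), a difference without overlap that did not pass in the fit with both FS lines in 1 group. With the FS lines as separate groups it passed (log2 fold change 5.06, SE 0.36, adjusted p = 9.65e-07, edgeR), as it did with AF and AFX alone (adjusted p = 0.000137) and with DESeq2 (adjusted p = 0.0155). Taken line by line against AF, Platr15 was higher in FS1 (3.49, SE 0.33, adjusted p = 4.38e-05) and lower in FS2 (-2.50, SE 0.60, adjusted p = 0.0116). Against AFX both lines were lower, FS1 (-1.56, SE 0.26, adjusted p = 0.00296) and FS2 (-7.55, SE 0.47, adjusted p = 1.64e-06).

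Platr15 levels in epiblasts were 50.4, 70.4 and 21.1 CPM at E5.0, 15.8, 17.0 and 13.6 CPM at E5.5, and 22.7, 0.0866 and 14.8 CPM at E6.0. E6.0 embryo 2 held 1 count, apart from the others. Of its protein-coding neighbours, Vsx1 was too low to test and Entpd6 did not pass between E5.0 and E6.0 (log2 fold change 0.53, adjusted p = 0.237, edgeR).

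**Figure D4:**
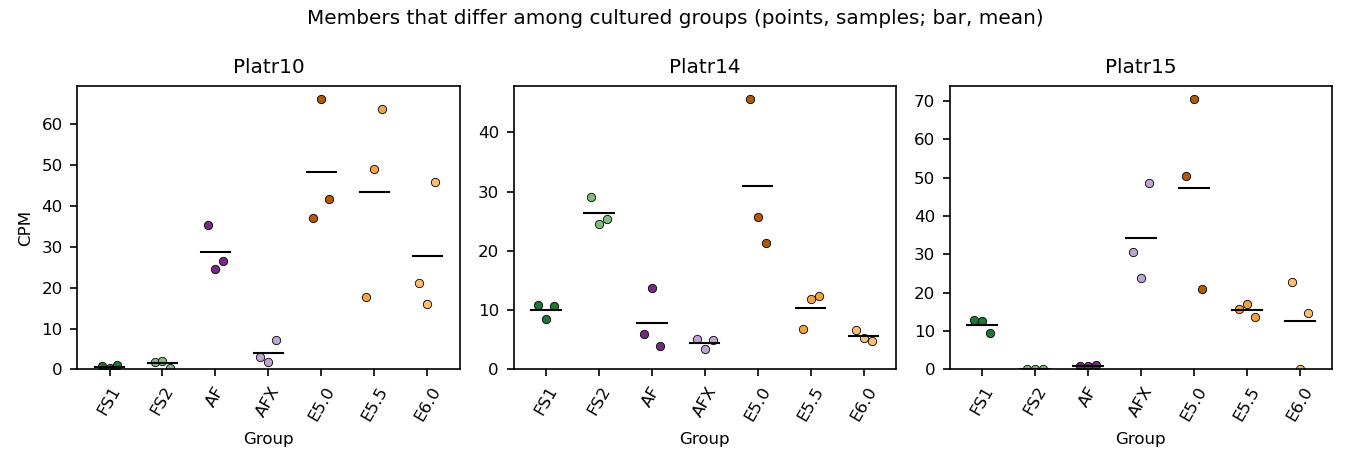
Levels in CPM (vertical axes, each with its own scale) of the 3 members that differed among cultured groups, in all 7 groups (horizontal axes), with 1 point per sample and a bar at the mean. Platr10 is high in AF and in the epiblasts, Platr14 is higher in FS2 than in FS1, and Platr15 is near 0 in FS2 and about 1 CPM in AF.

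FS cells held less of several members than the E5.5 epiblast. Against E5.5, 17 of the 30 members were tested, 8 were lower in FS and none was higher. Among all 16614 genes tested, 20.8% were lower and 23.0% higher. The 8 were Platr4, Platr5, Platr10, Platr12, Platr13, Platr17, Platr20 and Platr22. Under other settings further members passed as lower in FS. They were Platr15 with FS2 alone, Platr21 with FS1 alone and without FS2 passage 12, Platr16 without FS2 passage 12, and Platr27 without E5.5 embryo 2. In some settings 2 members were higher in FS. Platr11 was so with DESeq2 (log2 fold change 1.84, adjusted p = 0.0344), without FS1 passage 18 (2.05, adjusted p = 0.037) and with FS2 as the only FS line (2.36, adjusted p = 0.03), and Platr14 with FS2 alone (1.34, adjusted p = 0.00589). Of the 8 members lower in FS, 5 passed the filter through neither FS nor E5.5 alone. Platr17 passed through E5.5 and not through FS. The fit held all 21 samples, and Platr17 also passed through E5.0 (5.71 to 15.1 CPM). Visceral endoderm genes were also lower in FS, 8 of 10 tested, with sums of 7.25 to 12.9 CPM in FS and 46.7 to 85.4 CPM at E5.5, and their part in this result was not tested. Cultured cells and single epiblasts also differ in cell number and handling, which cannot be told apart from the group.

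Platr10 was 40.1-fold lower in FS than at E5.5 (log2 fold change -5.33, SE 0.51, adjusted p = 3.21e-07, edgeR). Platr22, an intergenic RNA between Zfp281 and Nr5a2, was 2.77-fold lower (-1.47, SE 0.35, adjusted p = 0.00156), with FS values of 1.79, 3.78 and 4.07 CPM in FS1 and 3.94, 2.64 and 2.96 CPM in FS2, all below E5.5. Platr4 had 0.738 CPM in 1 FS sample and no count in the other 5, and was at least 9.97-fold lower (adjusted p = 0.000156). Platr17 was at least 10.2-fold lower and Platr13 at least 8.68-fold lower (adjusted p = 0.000612). Platr12 and Platr20 had no count in any FS sample and were at least 2.20-fold and 2.11-fold lower. At E5.5 Platr12 had 0.452, 1.15 and 0.187 CPM and Platr20 had 1.13, 0.115 and 0.466 CPM, so the highest embryo carried much of each bound. These bounds are against 3 counts per sample, since the FS means lay under that floor. The call of Platr5 (adjusted p = 0.0466) is the weakest, and was lost in 10 of 14 other settings.

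With all cultured groups set against all epiblast stages, 17 members were tested, 13 were lower and none was higher. Among all genes tested, 27.9% were lower and 33.9% higher. The test compared the mean log level of FS, AF and AFX with that of the 3 stages. A stage near 0 thus weighs more than in a mean of CPM. Of the 13, 9 passed the filter on low counts only through the epiblasts, so they could hardly be tested without being lower in culture. Visceral endoderm genes were lower in culture too, 8 of 10 tested, and their part in this result was not tested. Platr12 had no count in any of the 12 cultured samples. Platr22 (1.79-fold) and Platr15 (2.13-fold) had the smallest folds of means, and the call of Platr15 (adjusted p = 0.0462, edgeR) was lost in 14 of 25 other settings. Some calls gained under other settings went the other way. Platr1, too low to be tested with all samples, was higher in culture in 14 of 21 fits with 1 sample left out (adjusted p 0.00722 to 0.0212, edgeR) and with no filter on low counts. Its group means were 0.377 to 0.551 CPM in culture, 0.746 CPM at E5.0, 0.0687 CPM at E5.5 and 0 CPM at E6.0. No cultured group mean was thus above E5.0. Platr11 was higher in culture with DESeq2 (log2 fold change 1.08, adjusted p = 0.0442) and in 3 fits with 1 sample left out, and Platr31 with no filter (3.15, adjusted p = 0.0279, edgeR). Platr25 passed as higher without E6.0 embryo 3 (0.62, adjusted p = 0.0277, edgeR). With all samples, however, its mean was 4.65 CPM in culture and 5.14 CPM in epiblasts. Without E6.0 embryo 1 the calls of Platr16 and Platr20 were lost, and without E6.0 embryo 3 that of Platr7 (adjusted p of 0.924 or more, edgeR). In each of these fits the E6.0 samples left had no count of the member. Cultured and epiblast samples overlapped for all 13.

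Protein-coding neighbours changed in both directions. The 12 members that fell between E5.0 and E6.0 have 24 such neighbours (the nearest on each side that does not overlap the member), of which 20 were tested, 5 fell and 1 rose, where 11.6% of all genes fell and 10.2% rose. Around the 8 members lower in FS than at E5.5, 14 of 16 neighbours were tested, 4 were lower and 5 higher (20.8% and 23.0% of all genes). Around the 13 members lower in culture than in epiblasts, 22 of 26 were tested, 6 were lower and 9 higher (27.9% and 33.9% of all genes). Beside Tnfrsf8, Zfp990 and Mum1l1, those that fell were Kifc1 near Platr17 (72.6 CPM at E5.0, 49.1 CPM at E6.0) and Jade1 near Platr4 (182 CPM, 137 CPM). Ctnnbl1 near Platr27 rose from 50.9 to 80.2 CPM. Daxx, 2739 bases from Platr17, was level at 82.9 CPM and 81.9 CPM. Next to Platr5, which did not pass, Arl4c rose from 64.7 to 104 CPM and Sh3bp4 from 40.2 to 75.1 CPM.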

How the data were processed

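RNA of 21 samples, prepared as total RNA with PicoPure per the labels, was measured as counts per gene. The authors deposited raw counts, which per the submitters' processing notes involve Trim Galore, TopHat2 2.1.0, featureCounts 1.5.0 and the mm10 build. Strand settings are not given in the sources used here. Positions come from GENCODE M21.

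Counts were tested in R 4.3.3 with edgeR 4.0.16 (filterByExpr, TMM, robust quasi-likelihood F-test, two-sided), adjusted by Benjamini-Hochberg over all genes tested, at 0.05. Cultured comparisons used the 12 cultured samples, stages the 9 epiblasts, and comparisons between them all 21. DESeq2 1.42.0 was an alternative. CPM uses TMM-scaled totals of all 21 samples. Fold changes in words are ratios of mean CPM, and bounds use 3 counts per sample. Floors cover counting error only. Sequence matches used blastn 2.17.0 and figures matplotlib 3.10.9. The test was tried on simulated data.

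Members and lists were chosen with earlier results of these data known. Members reaching a group mean of 1 CPM are described singly, their nearest protein-coding neighbours are given where they changed or bear on a result, and up to 3 genes per list are named by adjusted p. Replicate pairs differed by more than sampling noise, with chi-square per degree of freedom of 5.19 or more.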

Additional observations from a re-analysis of the deposited data

Results flagged for a closer look

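In the 6 FS samples, 1 sample lay far from the other 5 for 4 of the 17 members examined. Chance gives about 1 such case in 20 groups of continuous values. That rate does not hold for Platr7 and Platr4, where the other 5 samples are at 0 and any count stands apart, and the 6 samples are of 2 lines. Platr21 had 4.42 CPM in FS2 passage 12, while the others had 0.397 to 1.53 CPM. Platr7 had 0.284 CPM in FS2 passage 16, from 5 counts, with none in the other samples. Platr5 had 0.496 CPM in FS1 passage 10, also from 5 counts, against at most 0.105 CPM. Platr4 had 0.738 CPM in FS2 passage 13, from 7 counts, with none elsewhere in FS.

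For 2 members a test of FS2 against FS1 passed. Platr14 had a log2 fold change of 1.37, a call lost when any 1 of the 6 FS samples was left out. Platr15 had -5.99. Of the FS lines only FS1 passed the filter on low counts, but AFX, in the same fit, passed it too (23.7 to 48.6 CPM).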

How the results depend on the processing

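No fold change of a called member reversed under any alternative run. The number of members called between FS and AF, 1, became 2 with DESeq2's Wald test, with the FS lines as separate groups and with FS1 alone, and 3 with FS2 alone. Between FS and AFX, 2 became 0 without a filter on low counts and 3 with the FS lines separate, with Platr15 gained as lower in FS. Between AFX and AF, 1 became 2 with DESeq2, with separate FS lines and with these 2 groups alone, each time by Platr15. At E5.5 against E5.0, 3 became 8 with DESeq2 and 9 without a filter. At E6.0 against E5.5, 1 became 2 with DESeq2 and without a filter, and 0 with a mean of at least 5 CPM or with these 2 stages alone. With that stricter filter, which tests fewer genes, 12 became 2 at E6.0 against E5.0, 8 became 2 for FS against E5.5, and 13 became 3 for cultured against epiblast. With the 2 groups alone, FS against E5.5 gave 3. Apart from that filter, the cause was not tested.

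With 1 sample left out, the count was 1 to 2 for FS against AF, 0 to 2 for FS against AFX, 1 for AFX against AF and for FS2 against FS1, 0 to 3 for E5.5 against E5.0, 0 to 1 for E6.0 against E5.5, 10 to 12 for E6.0 against E5.0, 7 to 9 for FS against E5.5 and 11 to 15 for cultured against epiblast. Of the 12 members lower at E6.0 than at E5.0, Platr7, Platr13 and Platr27 lost the call in some setting. The other 9 kept it where tested, which is no sign of stability for members that needed E5.0 to pass the filter.

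Same-numbered samples did not deviate together (correlations of -0.137 to 0.223), so the numbers were not taken to pair samples. With the replicate number as a block, 2 members were called for AFX against AF, 1 for E5.5 against E5.0 and 0 for E6.0 against E5.5. For E6.0 against E5.0 it was 12 again, with Platr10 gained and Platr13 lost. FS shares fewer than 2 numbers with the other groups, so no paired analysis was possible because of that for FS.

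Members under about 1 CPM rest on few counts, and each group has 3 samples.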

Other observations

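Kis2, which RefSeq also names Platr24, was lower at E5.5 than at E5.0 (log2 fold change -1.53, SE 0.41, adjusted p = 0.0401, edgeR), with 16.1 ± 9.44 CPM at E5.0, 5.62 ± 1.67 CPM at E5.5 and 15.7 ± 0.634 CPM at E6.0 (SD, n = 3). Between E5.0 and E6.0 its log2 fold change was -0.05 (SE 0.39, adjusted p = 0.951). In culture it was lower in FS than in AFX (-0.75, SE 0.20, adjusted p = 0.0276) and higher in FS than in AF (0.79, SE 0.22, adjusted p = 0.0192). Lncenc1, also named Platr18, was lower in FS than at E5.5 (-3.29, SE 0.60, adjusted p = 0.000222), whereas Kis2 was higher there (1.65, SE 0.32, adjusted p = 0.000237) and higher in culture than in epiblasts (0.63, SE 0.19, adjusted p = 0.00576).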
